A study of Homo sapiens with 4 samples.

Results

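The genes described here are 32 genes of cholesterol metabolism, listed by name with earlier results of these data known, and read in K562 cells with and without a hairpin against KLF3. They comprise 18 enzymes of cholesterol synthesis, 5 genes of SREBP sensing and 9 genes of sterol transport, storage and efflux. Named probes were found for 30 of the 32, and 26 were above background in at least 1 group, among 9530 genes tested in all. FDFT1, which encodes squalene synthase, and NR1H2, which encodes the LXR beta receptor, are not listed in the platform annotation and were not analysed here. The sensing gene SREBF2 and the transport genes STARD4 and SOAT1 were not above background on any array, and the mevalonate kinase gene MVK was detected on 1 control array alone; these 4 genes were not tested and have no fold.

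Cells make cholesterol from acetyl-CoA through mevalonate, isoprenoids and squalene, and lanosterol is then trimmed to cholesterol in the endoplasmic reticulum. SREBP transcription factors, carried by SCAP and held back by INSIG proteins when sterols are plentiful, switch on the synthesis genes when sterols run low. LXR receptors respond to oxidised sterols and switch on the efflux transporters ABCA1 and ABCG1. Red cell precursors draw on the same pathway, since cholesterol is a main lipid of the red cell membrane.

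K562 is a human erythroleukemia line that carries the BCR-ABL fusion. The control group was a stable K562 line with a control shRNA and the other group a stable K562 line with an shRNA against KLF3, a repressor of the Krüppel-like factor family, so that both groups carry a hairpin. Cells were kept in RPMI1640 with fetal bovine serum and had no other treatment in the labels. Each group had 2 Illumina bead arrays, the second labelled a repeat. Each group stands for 1 line, and the labels do not say whether a line is a clone or a pool. Nothing says that the repeats came from separate cultures, so every p-value rests on array-to-array spread alone, and this spread may be technical.

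Detected probes numbered between 15479 and 16182 per array, and the correlation across genes of the log2 values was 0.997 between the control arrays and 0.995 between the knockdown arrays. Neither KLF3 probe was above background on any array, with the lowest detection p at 0.084 and 0.49, so the arrays give no check of the depletion. The 5 K562 markers read here (HBG1, HBE1, GATA1, TAL1 and TFRC) were detected on all 4 arrays. Among 12 markers of T cells, B cells, epithelium and liver, 9 were not above background on any array and 1 had no listed probe, while the epithelial gene EPCAM was detected on all 4 arrays and the liver gene ALB on 3. Among these 5, the globin genes HBE1 and HBG1 were higher in the knockdown line by 1.84 and 0.54 on the log2 scale (limma adjusted p = 0.000144 and 0.00501), and TFRC, the transferrin receptor gene, fell by 0.60 (adjusted p = 0.00269). The erythroid transcription factor genes GATA1 and TAL1 differed by -0.14 and 0.20 and did not pass. The part of these marker differences in the results below was not tested.

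In the knockdown line the sterol sensor gene INSIG1 and the efflux transporter gene ABCG1 were higher by 1.23 and 1.12 on the log2 scale after background correction (0.96 and 0.63 without it), while ABCA1, the other efflux transporter gene, dropped below detection. Smaller increases were found for the synthesis genes MVD, CYP51A1, HSD17B7 and IDI1, for INSIG2, for the lysosomal sterol carrier gene NPC2 and for the LXR receptor gene NR1H3, and the lanosterol synthase gene LSS was lower. Of the 26 measured genes, 9 rose and 2 fell (limma, Benjamini-Hochberg adjusted over all 9530 genes, threshold 0.05), 42.3% together. Among all genes tested 40.0% passed, so the share of cholesterol genes that passed is close to that of genes in general. By direction the cholesterol genes divided into 34.6% higher and 7.69% lower, against 19.4% higher and 20.7% lower among all genes. The median log2 difference over the 26 genes was 0.18, and over all genes it was -0.015. In the plot of signal by array, 21 of the 26 genes had control and knockdown arrays that did not overlap, 15 higher and 6 lower in the knockdown line. Over all genes, 73.5% did not overlap, 35.3% higher and 38.3% lower. Scaling arrays to their median in place of quantile normalization lowered the share of higher genes among all that passed from 48.3% to 37.4%, and gave 8 cholesterol genes higher and 3 lower. Without control replicate 1 the cholesterol genes numbered 5 higher and 1 lower (902 and 884 among all genes), and without control replicate 2 they numbered 4 and 1 (909 and 888 among all genes). The arrays measured whole cultures, in which fewer cells of a type and less RNA per cell cannot be told apart.

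**Figure D1:**
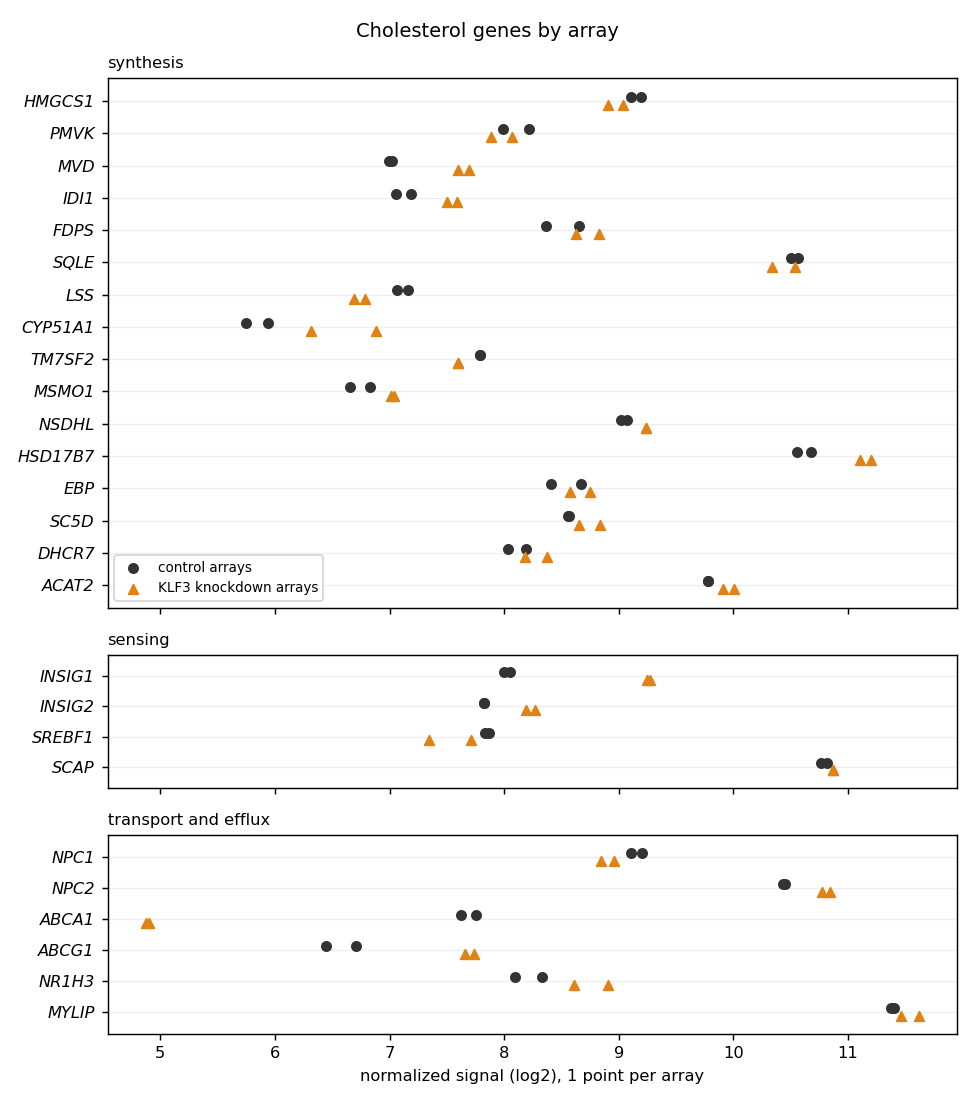
Normalized log2 signal (horizontal axis) of the 26 measured cholesterol genes on each array, with circles for the 2 control arrays and triangles for the 2 KLF3 knockdown arrays, in panels for synthesis, sensing, and transport and efflux. Each gene is compared only with itself. INSIG1 and ABCG1 triangles lie to the right of their circles with a wide gap, and those of ABCA1 lie at 4.90 and 4.88, far to the left.

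**Figure D2:**
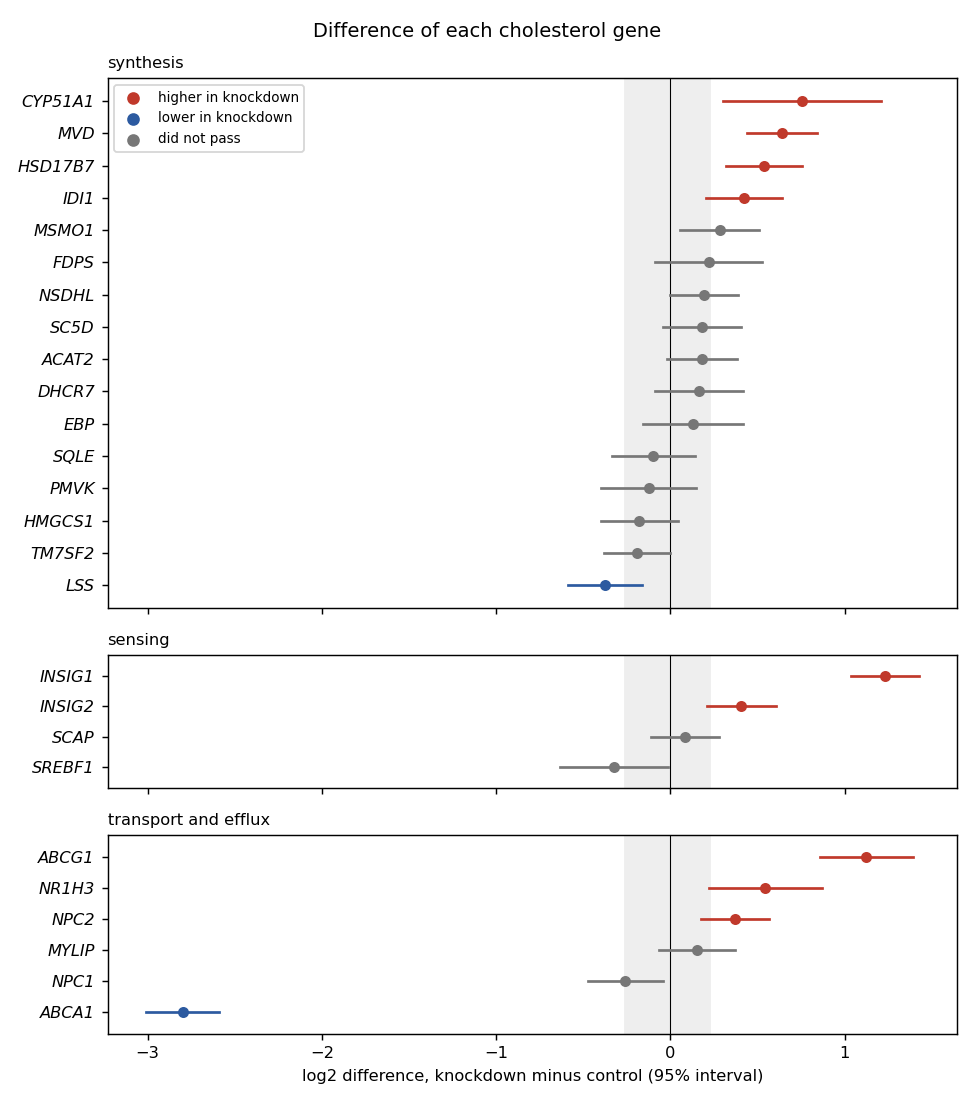
Log2 difference between knockdown and control (horizontal axis) of each measured cholesterol gene with its unadjusted 95% interval from the limma fit, coloured by whether it passed the adjusted threshold. The grey band spans the middle 50% of all 9530 genes, from -0.26 to 0.23. The point of ABCA1 is a fitted value against background, and its bound after background correction is nearer to 0, at 4.25-fold. Without that correction the log2 difference of ABCA1 was -1.26, smaller than this bound.

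Promoter sequence is shown for 4 of the genes that passed, 2 synthesis genes with motifs common in that group and the sensing and efflux genes with the largest changes. The windows run from 250 bases before to 50 bases after the annotated start and were taken from RefSeq on GRCh38.p14, where 28 of the 32 genes matched. Capitals mark CCAAT, the core bound by NF-Y, a partner of SREBP factors, and CACCC, the core bound by KLF proteins. Either may be read on the other strand, as ATTGG or GGGTG. The MVD window lies at chr16:88663042-88663341 on the minus strand, that of HSD17B7 at chr1:162790452-162790751 on the plus strand, that of INSIG1 at chr7:155297628-155297927 on the plus strand and that of ABCA1 at chr9:104928106-104928405 on the minus strand.
MVD: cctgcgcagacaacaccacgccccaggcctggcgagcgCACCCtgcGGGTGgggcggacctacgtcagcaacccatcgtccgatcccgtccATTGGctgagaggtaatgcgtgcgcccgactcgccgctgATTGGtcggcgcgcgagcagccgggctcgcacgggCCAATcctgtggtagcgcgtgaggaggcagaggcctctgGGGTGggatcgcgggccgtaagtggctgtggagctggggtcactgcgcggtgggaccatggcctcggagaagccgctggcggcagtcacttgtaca
HSD17B7: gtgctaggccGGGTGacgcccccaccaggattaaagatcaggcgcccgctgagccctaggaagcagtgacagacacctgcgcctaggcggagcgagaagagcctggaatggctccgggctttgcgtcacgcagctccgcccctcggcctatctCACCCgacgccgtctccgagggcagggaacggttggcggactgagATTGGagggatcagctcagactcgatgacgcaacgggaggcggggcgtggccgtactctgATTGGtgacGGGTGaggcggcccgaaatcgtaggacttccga
INSIG1: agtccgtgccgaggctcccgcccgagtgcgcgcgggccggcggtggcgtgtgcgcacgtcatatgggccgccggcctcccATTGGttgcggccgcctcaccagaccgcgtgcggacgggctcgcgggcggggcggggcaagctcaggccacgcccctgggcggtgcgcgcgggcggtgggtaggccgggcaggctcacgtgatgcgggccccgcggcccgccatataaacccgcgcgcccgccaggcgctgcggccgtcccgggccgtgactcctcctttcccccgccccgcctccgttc
ABCA1: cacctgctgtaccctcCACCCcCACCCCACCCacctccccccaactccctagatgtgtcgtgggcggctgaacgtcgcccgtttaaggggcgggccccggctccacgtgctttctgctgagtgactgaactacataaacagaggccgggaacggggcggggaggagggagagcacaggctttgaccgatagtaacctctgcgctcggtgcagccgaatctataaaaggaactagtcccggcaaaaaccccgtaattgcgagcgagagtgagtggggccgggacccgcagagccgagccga
CCAAT had 3 matches in the MVD window and 2 in that of HSD17B7, against 1 in INSIG1 and 0 in ABCA1. MVD and HSD17B7 were shown for these motifs, so their counts do not stand for the synthesis genes that passed. Of the others that passed, IDI1 and CYP51A1 had 0 CCAAT matches and LSS had 1. CCAAT was present in 12 of 15 synthesis promoters, 80.0%, and in 35.7% of all 27305 promoters of this length. CACCC was present in 13 of the 15, 86.7%, and in 58.9% of all promoters. In the other arms CCAAT and CACCC were each present in 2 of 5 sensing promoters and 4 of 8 transport and efflux promoters. Over all 28 promoters here CCAAT was present in 64.3% and CACCC in 67.9%. Among promoters of genes tested these shares were 38.1% and 62.6%. The 3 CACCC matches of ABCA1 lie together at the upstream end of its window, while INSIG1 has 0. Among promoters of the 10 genes that passed and have a window, 5 held CCAAT, as did 9 of 13 among measured genes that did not pass. CACCC was held by 7 of the 10 and by 8 of the 13. The core of the sterol regulatory element, written TCACNCCAC and searched on both strands, was found in 1.15% of all promoters and in 1 of the 28 here. That match is TCACCCCAC in the SREBF2 promoter, which contains CACCC as well. Absence of a match says only that these letters are not in the window.

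Of the 16 measured synthesis genes 4 were higher and 1 lower, 31.2% together against 40.0% of all genes. The early steps hold 2 of the risers. MVD, the decarboxylase that turns mevalonate diphosphate into the first isoprenoid unit, read 7.02 and 6.99 on the control arrays against 7.69 and 7.60 on the knockdown arrays. Its groups did not overlap, and it rose 1.56-fold (log2 difference 0.64, SE 0.08, limma adjusted p = 0.00256). Without background correction the MVD difference was 0.38, and it passed. MVD lies on chromosome 16, whose other 457 tested genes had a median difference of 0.36, and its 40 nearest tested neighbours had a median of 0.25, of which 19 were higher and 2 lower. The difference of MVD exceeded that neighbour median by 0.39; the part of the shared shift in it was not tested. IDI1, the isomerase acting on the product of MVD, read 7.05 and 7.19 against 7.58 and 7.50, and rose by 0.42 (SE 0.09, limma adjusted p = 0.0129). IDI1 did not pass without control replicate 1 (log2 difference 0.36, adjusted p = 0.0893) or with median scaling (0.32, adjusted p = 0.0582), and its difference was 0.25 without background correction.

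Other enzymes before squalene did not pass. HMGCS1, the synthase that makes HMG-CoA, read 9.11 and 9.19 on the control arrays against 9.04 and 8.90 on the knockdown arrays. Its groups were separate by less than 0.1, and its difference of -0.18 had a 95% interval of -0.40 to 0.04. PMVK, which adds the next phosphate to phosphomevalonate, and FDPS, which builds farnesyl diphosphate, had overlapping groups and differences of -0.12 and 0.22. ACAT2, the cytosolic thiolase that joins acetyl-CoA units, differed by 0.18 (interval -0.02 to 0.38). Intervals of this width leave room for changes as large as those of several genes that passed.

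Neither step from squalene to lanosterol rose. SQLE, the epoxidase, gave 10.51 and 10.56 on the control arrays against 10.54 and 10.33 on the knockdown arrays with its brighter probe, which overlapped. Its other detected probe gave a difference of 0.16 in place of -0.10, so the probes disagree in sign and neither passed. LSS, the cyclase that makes lanosterol, read 7.06 and 7.16 on the control arrays against 6.69 and 6.79 on the knockdown arrays. It fell by 0.37 on the log2 scale (SE 0.09, limma adjusted p = 0.0185), the only one of the measured synthesis genes to pass in that direction. LSS did not pass without control replicate 1 (adjusted p = 0.0651), without control replicate 2 (0.115), without knockdown replicate 1 (0.0543) or without a detection filter (0.0539), and its difference was -0.20 without background correction. Its 27 nearest tested neighbours on chromosome 21 had a median of -0.24, and 10 of them were lower and 4 higher.

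Among the enzymes that trim lanosterol to cholesterol, 2 rose. CYP51A1, the demethylase that acts first on lanosterol, read 5.74 and 5.94 on the control arrays against 6.89 and 6.31 on the knockdown arrays. Its control values lie near the lowest detected signals of those arrays, 5.50 and 5.53. In deposited intensity CYP51A1 gave 166 and 173 on the control arrays against 228 and 183 on the knockdown arrays. The groups were separate but the knockdown arrays differed from each other by more than the control arrays did, and the increase was 0.76 (SE 0.19, limma adjusted p = 0.0217). CYP51A1 did not pass without control replicate 1 or 2 (adjusted p = 0.118 and 0.0673) or without a detection filter (0.0833). Its difference was 0.47 without knockdown replicate 1 and 1.04 without knockdown replicate 2, and 0.31 without background correction. HSD17B7, a reductase of sterol ketones, read 10.68 and 10.55 against 11.20 and 11.10 and rose 1.45-fold (limma adjusted p = 0.00604). Without control replicate 2 its adjusted p was 0.0506. HSD17B7 has a close pseudogene copy, so its probe cannot be assigned with certainty.

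The remaining enzymes of this stretch had small differences that did not pass. MSMO1, the methylsterol oxidase, came closest, with 6.83 and 6.65 on the control arrays against 7.01 and 7.04 on the knockdown arrays (log2 difference 0.28, limma adjusted p = 0.0527). It passed with the mean of its kept probes (0.28, adjusted p = 0.0322) and with detection required on all 4 arrays (adjusted p = 0.0435). NSDHL, EBP and SC5D, a dehydrogenase, an isomerase and a desaturase of sterols, differed by 0.19, 0.13 and 0.18, and the sterol reductase gene TM7SF2 by -0.19. DHCR7, the last reductase of a branch to cholesterol, differed by 0.17 with its brighter probe and by -0.19 with the other, so the probes disagree in sign. Over the 11 measured synthesis genes that did not pass, intervals ran from -0.40 at the lowest to 0.52 at the highest.

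Both INSIG genes were higher in the knockdown line, whereas SCAP and SREBF1 did not pass. INSIG1, the sterol-responsive anchor that keeps SCAP in the endoplasmic reticulum, read 8.05 and 8.00 on the control arrays against 9.24 and 9.27 on the knockdown arrays. The groups lay far apart relative to their spread, and INSIG1 rose 2.35-fold (log2 difference 1.23, SE 0.08, limma adjusted p = 0.000273). In deposited intensity the same probe gave 387 and 373 on the control arrays against 722 and 689 on the knockdown arrays. Its second probe was not above background on any array, with intensities of 121 and 118 against 143 and 133, so the increase rests on 1 probe.

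INSIG1 lies on the distal long arm of chromosome 7 among genes that were higher as well. Its 8 nearest tested neighbours, 4 on either side, were all higher, with log2 differences between 0.47 and 1.96, a count chosen after the values were seen. Next to it PAXIP1-DT and RBM33 rose by 0.97 and 1.17, and PAXIP1, a gene of DNA damage signalling, rose by 1.96. Of the 20 tested genes before INSIG1, 14 were higher and 1 was lower. Beyond MNX1, 4 genes after INSIG1, the direction turned, with 4 of the last 5 tested genes of the chromosome lower and 0 higher. The plot of neighbours shows this change of sign. INSIG1 exceeded the median of its 29 neighbours, 0.45, by 0.78 and ranked below PAXIP1 alone. Those 29 include the 5 genes after the turn. The median of the 8 nearest neighbours was 0.94, against 1.23 for INSIG1. Over the other 448 tested genes of chromosome 7 the median was 0.03, against -0.015 over all genes. Whether the increase of INSIG1 has a source in common with that of its neighbours was not tested.

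INSIG2, the paralog that is regulated less by sterols, read 7.83 and 7.82 against 8.19 and 8.27, and rose 1.33-fold (limma adjusted p = 0.011). It lies on chromosome 2, where its 40 nearest neighbours had a median of -0.15. Without control replicate 1 or 2 it did not pass (adjusted p = 0.0683 and 0.0688), although its difference stayed at 0.41 in each case. SCAP, the escort of SREBP factors, read 10.82 and 10.76 against 10.87 and 10.87, a difference of 0.08 with an interval of -0.11 to 0.28. SREBF1, which encodes the SREBP factor linked to fatty acid genes, read 7.87 and 7.84 on the control arrays against 7.71 and 7.35 on the knockdown arrays. The knockdown arrays were both lower but spread widely, and the difference of -0.32 did not pass (limma adjusted p = 0.0903). With the mean of its 2 detected probes SREBF1 passed at -0.35 (adjusted p = 0.0159), and it also passed without background correction (-0.21, adjusted p = 0.0327), with the authors' processed table (-0.21, adjusted p = 0.0322), with an intensity trend (adjusted p = 0.0418) and without knockdown replicate 1 (-0.51, adjusted p = 0.0125). Without knockdown replicate 2 its difference was -0.14 (adjusted p = 0.304), so the size of the SREBF1 difference depends on which knockdown array is kept.

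**Figure D3:**
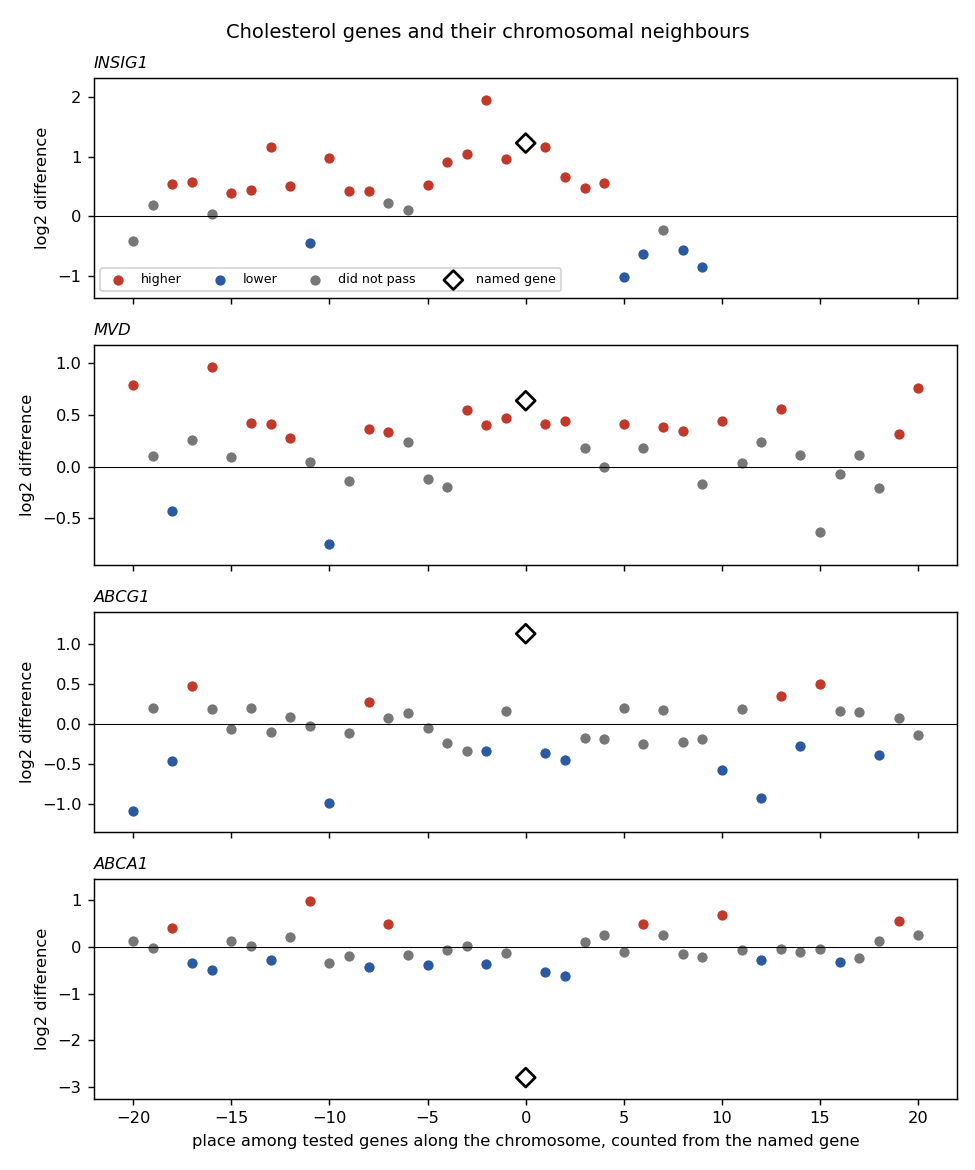
Log2 difference between knockdown and control (vertical axis) of INSIG1, MVD, ABCG1 and ABCA1 (diamonds) and of up to 20 tested genes on each side, by their order along the chromosome (horizontal axis, no distances). Red points are higher, blue lower and grey did not pass. INSIG1 sits among higher genes that give way to lower ones after the fourth gene to its right, whereas ABCG1 and ABCA1 lie outside the range of all their 40 neighbours.

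The efflux transporters moved in opposite directions. ABCA1, the transporter that loads cholesterol onto apolipoprotein A-I, read 7.62 and 7.75 on the control arrays against 4.90 and 4.88 on the knockdown arrays. In deposited intensity it gave 315 and 333 on the control arrays against 133 and 129 on the knockdown arrays, and neither knockdown array detected it. ABCA1 met the detection filter through the control arrays alone. The fitted log2 difference was -2.80 (limma adjusted p = 3.84e-05), and this p-value rests on knockdown values at background. After background correction ABCA1 was therefore at least 4.25-fold lower, a bound set against the lowest signal of detected probes. Without background correction its log2 difference was -1.26, smaller than this bound. ABCA1 has 1 probe, and its 40 nearest neighbours on chromosome 9 lay between -0.63 and 0.99 with a median of -0.07, so ABCA1 stood apart from them.

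ABCG1, the transporter that passes cholesterol on to high-density lipoprotein, read 6.71 and 6.45 on the control arrays against 7.66 and 7.74 on the knockdown arrays. Its groups did not overlap and it rose 2.18-fold (log2 difference 1.12, SE 0.11, limma adjusted p = 0.00107). Its probe was detected on all 4 arrays, with deposited intensities of 219 and 199 against 312 and 308. The other 4 ABCG1 probes were not above background on any array, and their log2 differences lay between 0.01 and 0.05. The increase thus rests on 1 of 5 probes. Without background correction the log2 difference of ABCG1 was 0.63 and it was 0.61 with the authors' processed table, and it passed in both. ABCG1 stood above each of its 40 neighbours on chromosome 21, whose median was -0.08.

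Of the LXR genes, NR1H3 rose and MYLIP did not pass. NR1H3, which encodes LXR alpha, read 8.33 and 8.09 on the control arrays against 8.61 and 8.91 on the knockdown arrays, separate but with a wide spread in each group. It rose by 0.54 (SE 0.13, limma adjusted p = 0.0213). It did not pass without control replicate 2 (adjusted p = 0.123), without knockdown replicate 2 (0.0606) or without a detection filter (0.076). MYLIP, an LXR target whose ubiquitin ligase marks lipoprotein receptors for destruction, read 11.41 and 11.38 against 11.47 and 11.62. Its difference of 0.15 had an interval of -0.07 to 0.37. ABCA1, ABCG1 and MYLIP, all known LXR targets among the transport and efflux genes, thus gave 1 decrease, 1 increase and 1 difference that did not pass. These are not all LXR targets that were measured, since LPCAT3, outside the listed genes, rose by 0.25.

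The lysosomal sterol exporters NPC1 and NPC2 differed in direction. NPC2, the soluble carrier that hands cholesterol to NPC1 inside the lysosome, read 10.45 and 10.43 on the control arrays against 10.78 and 10.84 on the knockdown arrays. It rose by 0.37 (SE 0.08, limma adjusted p = 0.0145), and did not pass without control replicate 1 or 2 (adjusted p = 0.0776 and 0.0856). NPC1, the membrane protein of the pair, read 9.11 and 9.20 on the control arrays against 8.84 and 8.95 on the knockdown arrays. Its groups did not overlap, but the difference of -0.26 did not pass (limma adjusted p = 0.0593). It passed as lower with median scaling (-0.32, adjusted p = 0.0344), without background correction (adjusted p = 0.0174), with the authors' processed table (adjusted p = 0.0167) and with an intensity trend (adjusted p = 0.021). STARD4, a cytosolic sterol carrier, and SOAT1, which esterifies cholesterol for storage, stayed at background intensities between 113 and 151 on the 4 arrays.

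**Figure D4:**
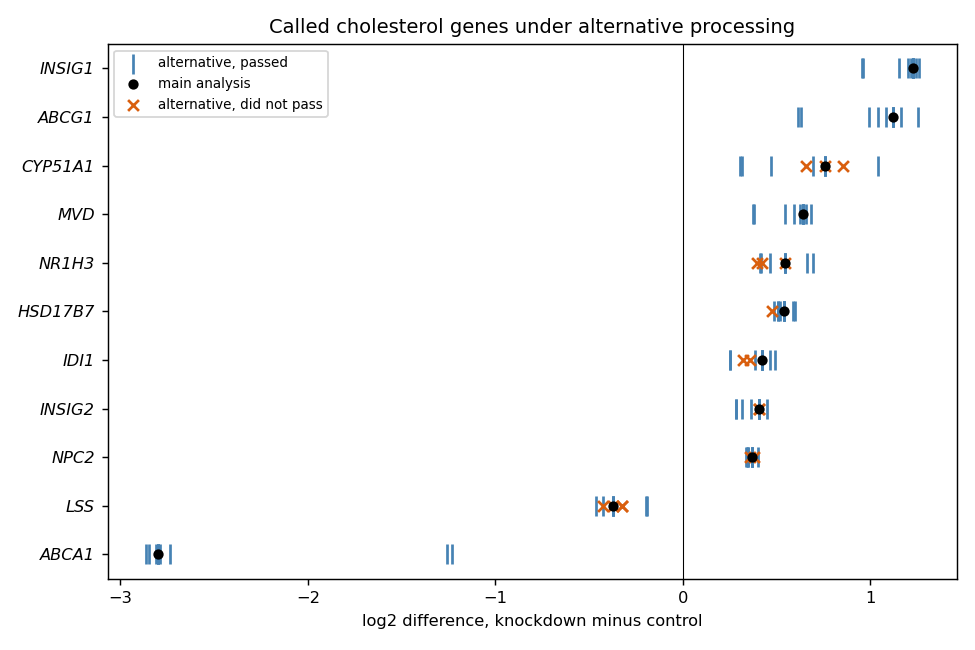
Log2 difference between knockdown and control (horizontal axis) of the 11 cholesterol genes that passed, as reported (black points) and under up to 12 alternatives (blue bars passed, orange crosses did not). INSIG1, ABCG1, MVD and ABCA1 passed in every alternative that measured them. ABCA1 was detected on the control arrays alone, so its differences are set against background. Its values near -1.26 and -1.23 are those without background correction and of the authors' processed table.

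Other genes of the pathway numbered 53 in 6 lists. Of the 36 that were measured, 6 rose and 7 fell, with a median of -0.0093. Those that passed made up 16.7% higher and 19.4% lower, against 19.4% and 20.7% among all genes. Acetyl-CoA supply and isoprenoid genes gave 3 higher and 2 lower of 9. ACLY, the citrate lyase that makes cytosolic acetyl-CoA, rose by 0.38 (limma adjusted p = 0.0186). DHDDS and GGPS1, which draw isoprenoids off into dolichol and geranylgeranyl chains, fell by 0.54 and 0.40 (limma adjusted p = 0.00645 and 0.0215). Among 5 sterol synthesis partners CYB5B, a cytochrome on chromosome 16 like MVD, rose by 0.48 and 4 did not pass.

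Of 7 genes of SREBP processing and turnover only NPLOC4, a cofactor in the extraction of ubiquitinated membrane proteins, passed, and it fell by 0.51. The protease genes MBTPS1 and MBTPS2, which release SREBP factors, differed by -0.0073 and 0.06. Also without passing, ERLIN1 and ERLIN2 differed by 0.49 and 0.23, and RNF145 and UFD1 by -0.24 and -0.08. Among 6 fatty acid genes driven by SREBP factors only FASN, the fatty acid synthase gene, passed, and it fell by 0.49 (limma adjusted p = 0.00869). SCD, ACACA and ELOVL6 differed by -0.18, -0.16 and -0.13, and LPIN1 and FADS1 by 0.07 and 0.03. Of 6 uptake and sterol transfer genes LRP8, a lipoprotein receptor gene, fell by 0.62, the lysosomal sterol carrier gene STARD3 fell by 0.33, and OSBPL8, which encodes an oxysterol-binding protein family member, rose by 0.58. Among 3 measured LXR partners and related genes RXRB, a partner receptor of LXR, fell by 0.35 and LPCAT3, an LXR target that remodels phospholipids, rose by 0.25 (limma adjusted p = 0.0222 and 0.0477).

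**Figure D5:**
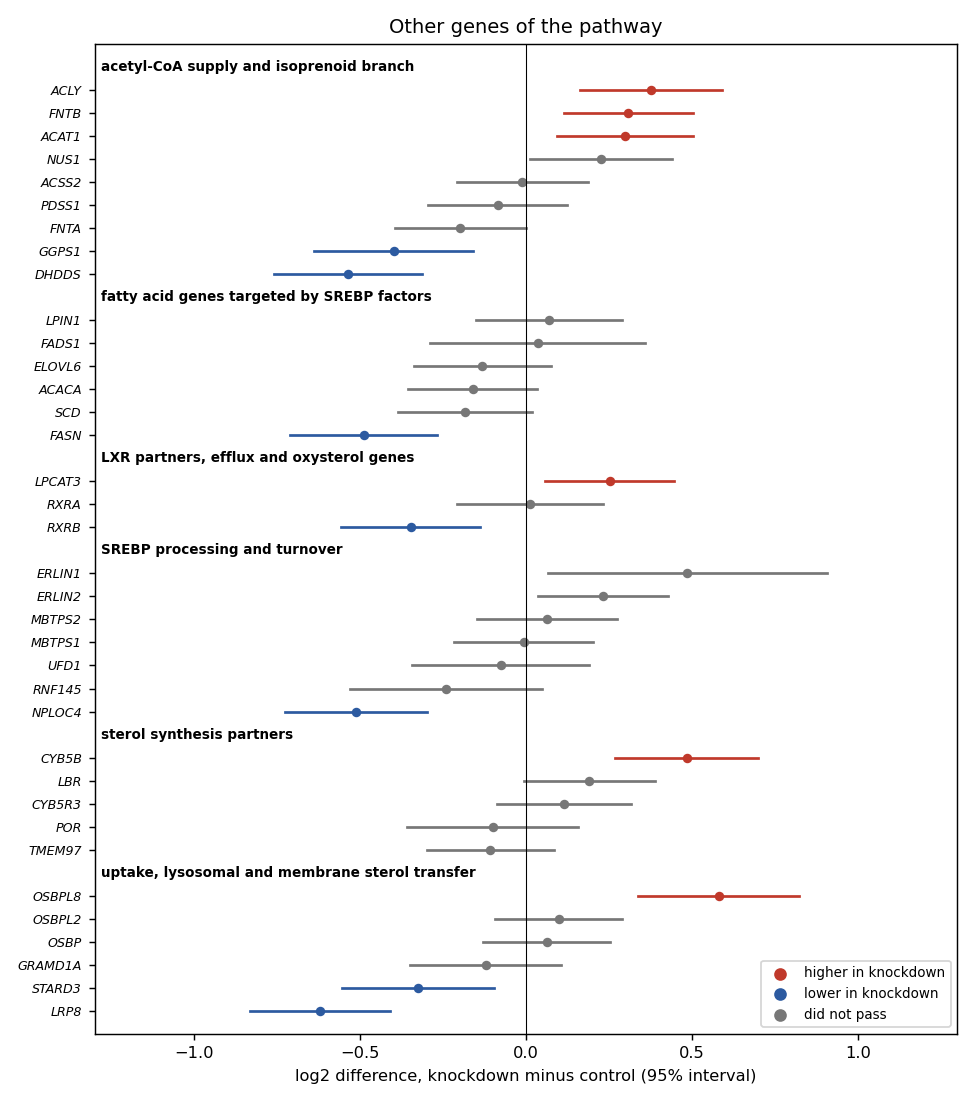
Log2 difference between knockdown and control (horizontal axis) with unadjusted 95% intervals for the 36 measured genes of 6 further lists of the pathway. Red points are higher, blue lower and grey did not pass. LRP8 at -0.62 and OSBPL8 at 0.58 mark the ends of the range.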

How the data were processed

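Total RNA of 4 K562 cultures or repeats was read on Illumina bead arrays. The deposited scanner table gives a linear intensity, not normalized, and a detection p-value for each of 47322 probes and array, per the file headers; the software is not stated. A second deposited table holds the authors' processed intensity values, whose sorted values differ between arrays by at most 0.303%.

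Intensities were corrected and quantile-normalized with neqc (offset of 16) in limma 3.58.1 (R 4.3.3), and differences of dim genes depend on this correction. Probes needed a detection p under 0.01 on both arrays of a group, which kept 15722. Symbols came from the platform annotation, updated by gene identifier; 30112 probes had 1 symbol, 8 several, and 17202 are unnamed here. The probe with the highest mean stood for its gene.

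Knockdown was compared with control by lmFit and eBayes without covariates (2 residual and 4.33 prior degrees of freedom), two-sided, and adjusted by Benjamini-Hochberg over 9530 genes. The 4 arrays limit the precision, and an exact permutation test cannot go below p = 0.333. A group with no detected array gives a bound against the lowest signal of detected probes. The fit was also run on simulated data with independent noise and far fewer changed genes than here. That run gives no check of the calls in these data. Gene order and chromosomes come from the GRCh38.p14 table, up to 20 tested genes on each side. The genes named are the listed members and up to 3 genes with the smallest adjusted p of each further list; other named genes were chosen after their values were seen. A further marker of the fixed list is not reported here. Members and lists were chosen with earlier results of these data known. Alternatives changed normalization, background correction, value source, detection filter, probe rule, variance model, block and arrays.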

Additional observations from a re-analysis of the deposited data

How the results depend on the processing

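Of the 11 cholesterol genes that passed, INSIG1, ABCG1 and MVD also passed under all 12 alternatives and ABCA1 under the 11 that measured it; the other 7 lost the threshold in at least 1. Leaving out 1 array gave 902 to 1612 higher and 884 to 1828 lower genes in all, 2 to 4 higher and 0 to 1 lower synthesis genes, 1 to 2 higher and 0 to 1 lower sensing genes, and 1 to 3 higher transport and efflux genes. A lone array is then assumed to vary like the other group. Without a detection filter, which more than doubled the genes tested to 20045, 1189 genes were higher, 1209 lower and 0 synthesis genes lower. SREBF1 made the lower sensing genes 1 in place of 0 without background correction, with the authors' processed table, with the mean over probes and with an intensity trend. NPC1 made the lower transport and efflux genes 2 in place of 1 with median scaling, without background correction, with the processed table and with an intensity trend. With detection on all 4 arrays their number was 0, since ABCA1, detected on the control arrays alone, was not tested. Values near 0 changed sign for SQLE with the mean over probes (0.029) and with 1 array left out (-0.20 to 0.0057), for EBP with 1 array left out (-0.0025 to 0.26) and for DHCR7 with the mean over probes (-0.011); the cause was not tested. The replicate number as a block gave 9 higher and 2 lower cholesterol genes, with 1724 higher and 1830 lower in all; the labels do not say that it pairs samples, and same-numbered arrays did not deviate together across genes (r = -0.006).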
